A study of Homo sapiens with 9 samples.

Results

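The 157 genes described here had a lower histone H2A signal, scaled to library depth, at both times measured after progestin, 30 and 60 min, than before it. They were chosen from the H2A gene table, which lists 20318 protein-coding genes, by a rule on the measured values. A gene was eligible if it lay on an autosome, spanned at least 3000 bp and had a mean H2A level of at least 0.5 RPKM (reads scaled to gene length and library depth) over the 3 libraries, which left 15477 genes. A member had a log2 change of -0.4 or lower at 30 min and of -0.3 or lower at 60 min, each against 0 min and with 0.05 RPKM added to both values. At 30 min 3.79% of eligible genes met the threshold, at 60 min 1.85%, and 1.01% met both. Another 430 genes met only the 30 min threshold and 130 only the 60 min threshold. Both changes share the 0 min library, and the rule used all 3 H2A libraries, so the H2A values of the members are a description and no test is given for them.

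The cells were T47D-MTVL, a breast cancer line, kept without serum and then either left unstimulated (0 min) or given the synthetic progestin R5020 at 10 nM for 30 or 60 min. Chromatin was fixed with formaldehyde, immunoprecipitated with an antibody to H2A and sequenced, giving 1 library per time. Antibodies to LSD1, HP1γ (HP1g in the labels) and BPTF were used in further libraries at 0 and 30 min, which came as peak lists. The series asks whether ATP made in the nucleus from ADP-ribose is needed for chromatin remodelling and gene regulation by hormone. The H2A depth recovered from the table was about 140900000 reads at 0 min, 168700000 reads at 30 min and 133200000 reads at 60 min. With 1 library per time there is no replicate, so no p-value is given, and the errors below cover the counting of reads only. The libraries hold no RNA, so the cell type was not checked against marker genes. H2A levels are compared between times within a gene and never between genes, because the table's values also scale with the number of transcripts annotated for a gene.

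H2A is one of the core histones: it pairs with H2B, and these dimers flank the H3 and H4 tetramer in the nucleosome. Remodelling enzymes can take the dimers off or slide the whole particle, and both can lower the H2A signal over a stretch of DNA. The progesterone receptor, bound by a progestin such as R5020, recruits such enzymes to its sites in breast cancer cells. BPTF is the large subunit of the NURF remodeller, LSD1 is a histone demethylase that can act as a corepressor, and HP1γ binds methylated histone H3.

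The promoters of 4 members are shown because these genes are among the 12 with the lowest mean change and differ in base composition over the whole gene. By that measure SLC22A17 and GAPDH are GC-rich and C6orf120 and PNP are the 2 members poorest in GC. Each is the 250 bases before 1 start that RefSeq lists for the gene (GRCh38.p14), on the gene's strand. That start need not be the gene's main start or its start in the H2A table, and the stretch may then lie inside the gene. This was not checked. Matches to GGGCGG (the GC box, either strand), ACANNNTGT, TGTTCT or TATAAA that do not overlap an earlier match are in capitals. The SLC22A17 stretch is chr14:23352888-23353137 on the minus strand, and those of GAPDH, C6orf120 and PNP are chr12:6535014-6535263, chr6:169701876-169702125 and chr14:20469156-20469405 on the plus strand.
SLC22A17: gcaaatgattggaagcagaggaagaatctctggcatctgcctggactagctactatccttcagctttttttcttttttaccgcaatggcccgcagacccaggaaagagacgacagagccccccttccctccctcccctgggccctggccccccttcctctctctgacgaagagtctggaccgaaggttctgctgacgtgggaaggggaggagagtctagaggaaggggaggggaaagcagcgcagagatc
GAPDH: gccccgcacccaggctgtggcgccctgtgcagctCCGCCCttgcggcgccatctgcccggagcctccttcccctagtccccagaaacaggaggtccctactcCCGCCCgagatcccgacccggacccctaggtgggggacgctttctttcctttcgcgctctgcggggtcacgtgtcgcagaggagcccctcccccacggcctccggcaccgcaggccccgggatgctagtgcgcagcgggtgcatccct
C6orf120: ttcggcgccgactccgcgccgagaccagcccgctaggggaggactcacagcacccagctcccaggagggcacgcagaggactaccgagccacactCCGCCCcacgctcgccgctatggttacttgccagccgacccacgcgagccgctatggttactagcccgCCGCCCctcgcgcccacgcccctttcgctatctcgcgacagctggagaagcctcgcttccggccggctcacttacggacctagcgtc
PNP: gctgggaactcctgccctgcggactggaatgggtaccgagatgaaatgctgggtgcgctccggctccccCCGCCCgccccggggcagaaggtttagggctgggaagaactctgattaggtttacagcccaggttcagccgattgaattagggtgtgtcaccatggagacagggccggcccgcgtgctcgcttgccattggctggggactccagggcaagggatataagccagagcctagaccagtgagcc
The capitals in these 4 stretches are all GC boxes, counted without overlap: 2 matches in GAPDH, 2 in C6orf120, 1 in PNP and none in SLC22A17. In PNP a further match begins inside the marked one, and its end is in lower case. The promoter of C6orf120 holds 30 CG dinucleotides and 68.8% G and C, although its gene as a whole has 42.2%. SLC22A17 has 7 CG dinucleotides in its stretch, GAPDH 22 and PNP 12. Their stretches hold 56.8%, 71.2% and 62% G and C, so that of SLC22A17 is the poorest of the 4.

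SLC22A17, which encodes a receptor for the iron-binding protein lipocalin 2, had the lowest mean of the 2 changes. Its H2A level was 2.04 RPKM at 0 min, 1.12 at 30 min and 1.53 at 60 min, a log2 change of -0.84 (counting SE 0.17) and then of -0.40 (counting SE 0.16). The gene spans chr14:23815523-23822069 in GRCh37 (hg19), the build of all gene positions below. Its 30 min level was 54.8% of that before hormone, the lowest share of any member, and part of the difference was gone at 60 min. GAPDH, the glycolytic enzyme that is often used as a reference gene (chr12:6643093-6647537), had 2.50 RPKM at 0 min, 1.47 at 30 min and 1.86 at 60 min. Its changes were -0.74 (counting SE 0.19) and -0.42 (counting SE 0.19). REEP4, which shapes the endoplasmic reticulum and keeps it off chromosomes in mitosis, had 3.64, 2.16 and 2.58 RPKM at the 3 times. All 3 genes had their lowest level at 30 min and stayed below their starting level at 60 min.

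APOE, an apolipoprotein that carries lipid between cells, had 1.84 RPKM at 0 min, 1.15 at 30 min and 1.26 at 60 min. PNP, a purine nucleoside phosphorylase (chr14:20937565-20943322), had 2.06, 1.29 and 1.46 RPKM, with changes of -0.65 and -0.48 (counting SE 0.18 for each). THTPA, which hydrolyses thiamine triphosphate, had 1.83, 1.12 and 1.34 RPKM. In these genes most of the difference seen at 30 min was still there at 60 min. CD37 and CD151 encode tetraspanins, membrane proteins of leukocytes and of integrin complexes. CD37 had 6.68 RPKM at 0 min, 4.42 at 30 min and 4.61 at 60 min. CD151 had 8.32, 5.07 and 6.43 RPKM. It overlaps POLR2L and reads on both strands were counted, so reads in the shared part count for both genes. The length of that part was not measured.

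C6orf120 (chr6:170102257-170106401) had its lowest level at 60 min. It had 0.867 RPKM at 0 min, 0.614 at 30 min and 0.523 at 60 min, with changes of -0.47 (counting SE 0.09) and -0.68 (counting SE 0.11). The 60 min change was the lowest of all 15477 eligible genes, and the gene overlaps PHF10, which encodes a subunit of the BAF remodeller. CD164L2 had 1.30, 0.898 and 0.851 RPKM, lower again at 60 min than at 30 min. CEND1, a neuronal cell cycle exit gene, had 0.895, 0.558 and 0.634 RPKM. SFTPC, the lung surfactant protein C gene, had 5.89, 4.03 and 4.12 RPKM and completes the 12 members with the lowest mean change.

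**Figure D1:**
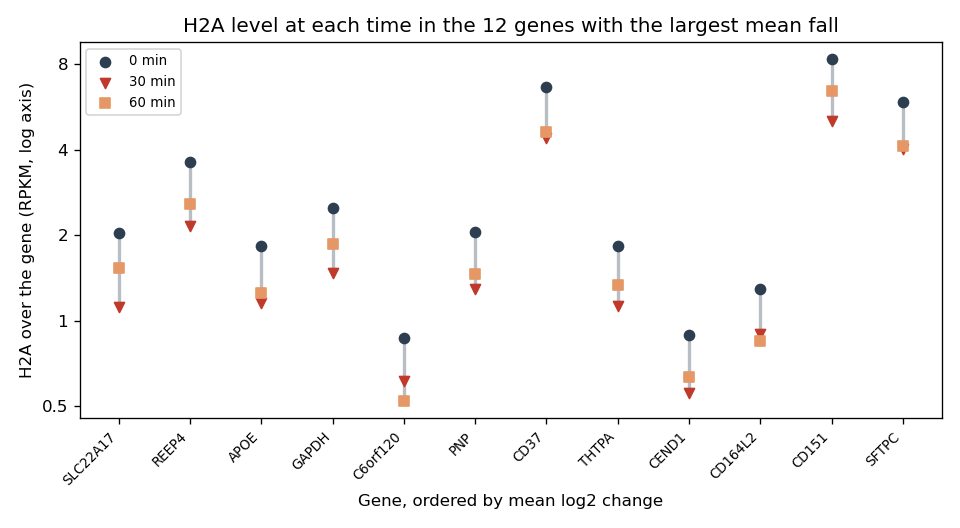
H2A level (RPKM, log axis) at 0, 30 and 60 min over the 12 genes with the lowest mean log2 change, 1 library per point and no error bars. Every gene has its highest level at 0 min, and C6orf120 and CD164L2 are lowest at 60 min while the other 10 are lowest at 30 min.

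Over the 157 members the 30 min change had a median of -0.46 and reached -0.84, and the 60 min change had a median of -0.35 and reached -0.68. The medians over all eligible genes were -0.14 and -0.03. The members' median H2A level was 71.8% of the 0 min level at 30 min and 77.6% at 60 min, against 90.6% and 98.0% for all eligible genes. The 430 genes that met only the 30 min threshold stood at 73.1% and 86.7%. The counting SE of a member's change had a median of 0.11 at both times, and both changes were past 2 counting SEs in 155 members (22.2% of eligible genes) and past 3 in 104 (11.5%). Nothing is read from these counts, since the rule chose low values. Most members sat close to the thresholds: 48 were at or below -0.5 at 30 min and 11 at 60 min. At 30 min 115 of all eligible genes lay that low, and at 60 min 16.

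The genes nearest the thresholds are given for reference. FLJ22184 was just inside with 1.12 RPKM at 0 min, 0.838 at 30 min and 0.860 at 60 min. TST, a mitochondrial sulphur transferase, was inside with 1.24, 0.925 and 0.986 RPKM, as were AMIGO1 and UAP1L1. ZNF579 was just outside with 0.698, 0.517 and 0.503 RPKM. CYP2W1, a cytochrome P450, was outside with 3.91, 2.95 and 3.11 RPKM, as were NKX2-1 and NPDC1.

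**Figure D2:**
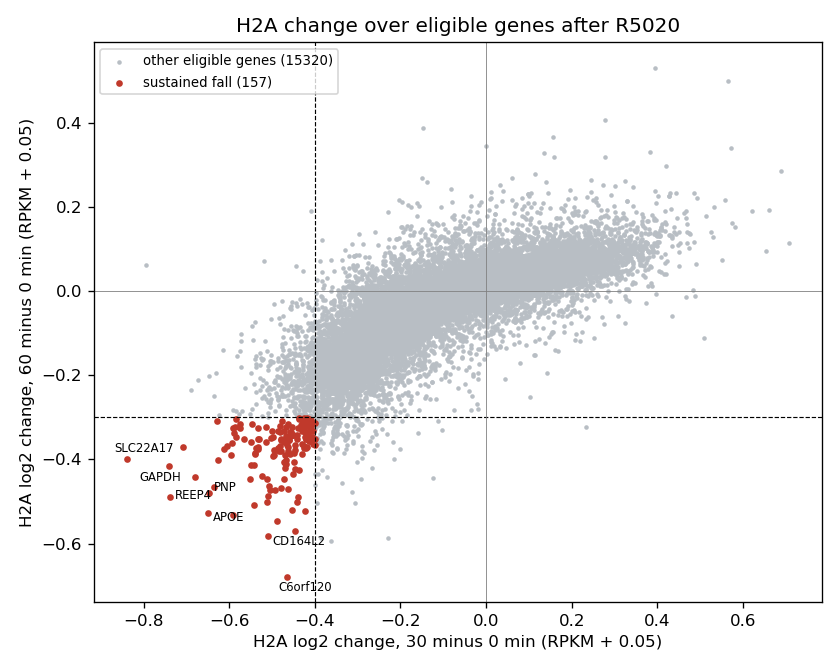
H2A log2 change at 30 min (x axis) against 60 min (y axis), both against the same 0 min library, for 15477 eligible genes. Red points are the 157 members, the dashed lines are the thresholds of -0.4 and -0.3 that chose them, and C6orf120 lies lowest at 60 min.

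Between 30 and 60 min the H2A level was higher at the later time in 148 of 157 members, and in 72.4% of all eligible genes. The rule used both values and was stricter at 30 min (-0.4) than at 60 min (-0.3), which by itself favours a higher level at 60 min. Nothing is therefore read from this count. The median log2 difference, 60 minus 30 min, was 0.11 in the members and 0.09 in all eligible genes. It was 0.25 in genes that met only the 30 min threshold and -0.01 in those that met only the 60 min threshold. The largest among the members was that of SLC22A17. LCN8, an epididymal lipocalin, had 3.04, 1.95 and 2.44 RPKM at 0, 30 and 60 min, and SYNGR3, a synaptic vesicle protein, had 2.86, 1.89 and 2.31 RPKM. Only 9 members were lower at 60 than at 30 min. CCDC74B had 1.08, 0.781 and 0.713 RPKM, ZNF446 had 3.20, 2.38 and 2.21 RPKM, and APOC3, an apolipoprotein of triglyceride-rich particles, had 2.33, 1.69 and 1.61 RPKM. CCDC74B has a near copy, so its reads may be shared between the copies.

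Some of the longest members had small counting errors. PLXNB2, the receptor plexin B2 (chr22:50713408-50746017, 32609 bp), had 5.21 RPKM at 0 min, 3.77 at 30 min and 4.18 at 60 min, with changes of -0.46 and -0.32 (counting SE 0.05 for each). JAG2, a Notch ligand of 27842 bp, had 2.71, 2.01 and 2.18 RPKM, with changes of -0.42 and -0.31. MUC6, a gastric mucin, had 1.77, 1.25 and 1.36 RPKM. None of these 3 long genes was among the 12 members with the lowest mean change. CASKIN1, a synaptic scaffold, had 1.64, 1.23 and 1.26 RPKM, and PEX6, an ATPase of peroxisome import, had 1.19, 0.884 and 0.944 RPKM. GGT1 and CDK11A, which were also among the 6 longest, have near copies in the genome and are uncertain for that reason.

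By function the members were mixed. The groups that follow were assembled from the members after their values were seen, and they hold 80 of the 157. Eligible genes of the same functions were not counted, so nothing is read from the group sizes. The group medians are bounded by the rule's thresholds and are description only. Metabolic enzymes and organelle proteins made up 23, with median changes of -0.47 at 30 min and -0.37 at 60 min. ACADVL, which begins the oxidation of very long fatty acids, had 19.3, 13.3 and 15.1 RPKM at 0, 30 and 60 min. STAR, which moves cholesterol into mitochondria for steroid synthesis, had 1.65, 1.11 and 1.23 RPKM. PNPLA2, a triglyceride lipase, and NAGS, an enzyme that regulates the urea cycle, were in this group. MRPL12, a mitochondrial ribosome protein, had 0.859, 0.606 and 0.629 RPKM.

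Secreted carriers of lipids and small molecules numbered 6, with median changes of -0.46 and -0.39. They were APOE, APOC3, LCN2, LCN8, OBP2B and ORM2. LCN2, whose product is the ligand of the SLC22A17 receptor, had 7.04 RPKM at 0 min, 5.29 at 30 min and 5.68 at 60 min. Its changes of -0.41 and -0.31 lay at the edge of the rule, unlike those of its receptor. ORM2 and OBP2B have near copies and are uncertain.

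Among 9 immune and NF-κB genes the median changes were -0.47 and -0.36. RELA, the p65 subunit of NF-κB, had 17.5, 12.4 and 13.8 RPKM at 0, 30 and 60 min. TNFRSF18, a costimulatory receptor of T cells, had 1.501, 1.04 and 1.05 RPKM, so its level was nearly the same at 30 and 60 min. CD79A, part of the B cell receptor, had 1.08, 0.773 and 0.845 RPKM. SPIB, a lymphoid ETS factor, had 2.45, 1.66 and 1.90 RPKM and overlaps the member ENSG00000142539, so these 2 are not independent entries.

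Genes of RNA processing and ribosomes numbered 12, with median changes of -0.49 and -0.36. DDX41, an RNA helicase, had 12.7, 9.02 and 9.15 RPKM at the 3 times. TRMT2A, a transfer RNA methyltransferase, had 9.47, 6.50 and 7.23 RPKM. CD2BP2, a splicing factor, had 2.15, 1.41 and 1.71 RPKM. RPL23A was 1 of 2 members among 58 eligible ribosomal protein genes, with 7.77, 5.82 and 6.06 RPKM, and RPL3L, the muscle form of RPL3, was the other.

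Ligands with their receptors or transducers numbered 9, with median changes of -0.45 and -0.35. SEMA4C, a semaphorin that binds plexin B2, had 2.36, 1.61 and 1.81 RPKM at 0, 30 and 60 min, and so both the ligand and PLXNB2 were members. FGF22, a fibroblast growth factor, had 1.42, 1.03 and 0.988 RPKM. DVL1, a transducer of Wnt signals, and DHH, a hedgehog ligand, were also in this group. Channels and transporters numbered 12, with median changes of -0.44 and -0.34. KCNJ11, the pore of the ATP-sensitive potassium channel, had 2.10, 1.43 and 1.60 RPKM. SLC29A2, a nucleoside transporter, had 4.13, 2.94 and 3.30 RPKM.

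Chromatin, transcription and replication genes numbered 9, with median changes of -0.42 and -0.35. KDM6B, the demethylase of methylated lysine 27 on histone H3, had 2.56, 1.92 and 2.00 RPKM at 0, 30 and 60 min. PRMT5, an arginine methyltransferase that acts on histones, had 6.29, 4.52 and 4.89 RPKM. GPS2, a subunit of the NCoR corepressor complex, had 8.92, 6.38 and 6.43 RPKM. CDT1, which licenses replication origins, had 2.45, 1.83 and 1.91 RPKM and was the only member among 19 eligible genes of the G1/S and replication list.

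The lists of progestin and estrogen response genes held no member, and they are too short for anything to be read from that. None of 27 eligible genes of a progestin response list was a member, 1 met the 30 min threshold and 1 the 60 min threshold. The list's median changes were -0.16 and -0.04, beside -0.14 and -0.03 for all eligible genes. It was below 0 in 22 genes at 30 min and in 18 at 60 min, and the same held for 70.8% and 61.1% of all eligible genes. None of 15 estrogen response genes, 17 luminal breast genes, 27 enzymes of poly-ADP-ribose, NAD and nuclear ATP, or 28 remodeller, LSD1 and HP1 genes was a member. The poly-ADP-ribose, NAD and nuclear ATP list had median changes of -0.10 and 0.01. At the overall share of 1.01%, lists of this size would hold few members or none. There was no member among 81 oxidative phosphorylation genes or 25 HOX genes, and 6 of 325 solute carriers were members (1.85%).

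The members were short and rich in GC. Neither property was used by the rule beyond the length minimum, but H2A changes followed both across all eligible genes. The median GC content of the gene was 59.9% in the members and 44.6% in all eligible genes, and 128 of 157 members had at least 55% against 14.4% of eligible genes. It was 57.0% in genes that met only the 30 min threshold and 58.6% in those that met only the 60 min threshold. High GC was therefore not particular to the members. The share of genes that were members climbed from 0 of 3974 below 40% GC to 9.83% of 580 between 60% and 65% and 16.2% of 130 above that. The median 30 min change of all eligible genes ran over the same bands from 0.13 below 40% GC to -0.36 above 65%, and the 60 min change from 0.05 to -0.21. The median length was 5587 bp in the members and 29277 bp in all eligible genes. Genes that met only the 30 min threshold had 7901 bp and those that met only the 60 min threshold 6175.5 bp, so they were short too. Of the members 126 were under 10 kb and 1, PLXNB2, was over 30 kb. Exons covered a median of 46.3% of a member and 12.4% of an eligible gene. In genes that met only the 30 min or only the 60 min threshold they covered 35.6% and 41.6%. The part of gene length in the result was not tested, and the values against GC content follow.

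The members' median distance from the trend of H2A change on GC content was -0.14 at 30 min and -0.18 at 60 min. At the members the trend itself went no lower than -0.39 at 30 min and -0.27 at 60 min, above both thresholds, so the rule alone placed every member below it. With the trend taken off and the median of all genes kept, 8 genes met both thresholds, of which 7 were members: APOE, C6orf120, CYP4A22, PNP, REEP4, STAR and THTPA. With the trend taken off and the changes centred on 0, PNP and THTPA were left. The counting SE of their changes was 0.18 for PNP and 0.22 for THTPA at both times, above the members' median of 0.11. The difference between 60 and 30 min had a median of -0.047 in the members once its own GC trend was taken off. That trend also removes the rise shared by genes of like GC, so the measured level itself was not lower at 60 min. The same median was 0.098 in genes that met only the 30 min threshold and -0.159 in those that met only the 60 min threshold. Since the rule used both values, nothing is read from it. Against the trend C6orf120 stood at -0.397 at 30 min (counting SE of its change 0.09), just short of the -0.4 threshold. At 60 min it stood at -0.68 (counting SE 0.11). CYP4A22, a fatty acid hydroxylase with 48.5% GC and near copies in its family, had 1.24, 0.840 and 0.941 RPKM at 0, 30 and 60 min. Only 5 members had a GC content under 50%: C6orf120, PNP, PRMT5, CYP4A22 and RPL23A.

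**Figure D3:**
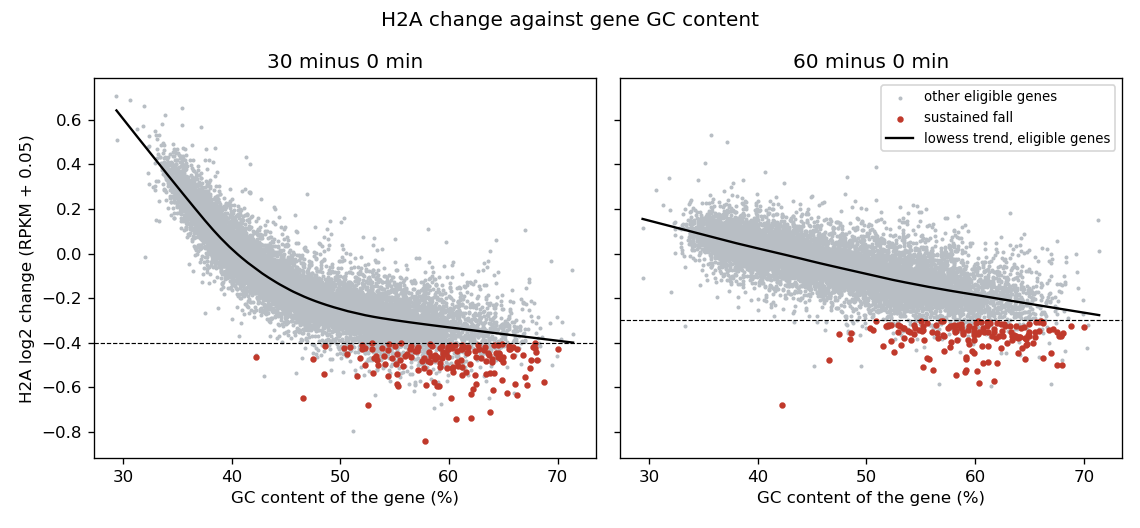
H2A log2 change at 30 min (left) and 60 min (right) against the GC content of the gene for 15477 eligible genes, with the lowess trend as a black line and the thresholds dashed. The red members lie mostly above 55% GC. They are below the trend because the rule's thresholds are, and the trend approaches the 30 min threshold at the highest GC.

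Members lay on 17 of the 22 autosomes. Chromosome 19 held 32 of its 1177 eligible genes (2.72%, Wilson 95% interval 1.93 to 3.81%) and chromosome 16 held 15 of 699 (2.15%), against 1.01% overall. Chromosomes 10, 13, 18, 20 and 21 held none. For the 640 eligible genes of chromosome 10 the upper Wilson bound was 0.597%. Chromosomes 19 and 16 had a median gene GC of 52.7% and 50.6%, against 44.6% over all eligible genes. Chromosome 14 held 10 of 506 (1.98%) at a median GC of 43.6% over its eligible genes, and chromosome 8 held 10 of 583 (1.72%) at 41.4%. The members themselves ran from 46.5% (PNP) to 65.9% (JAG2) on chromosome 14 and from 51.6% (STAR) to 67.9% (C8orf82) on chromosome 8. Of those with no member, chromosome 20 had a median GC of 47.9% and chromosome 10 one of 43.1%. Genes within 5 Mb of a chromosome end made up 56 of 157 members (35.7%) and 12.2% of eligible genes. The median distance to a chromosome end was 12.8 Mb in the members and 29.1 Mb in all eligible genes. It was 18.1 Mb in genes that met only the 30 min threshold and 9.97 Mb in those that met only the 60 min threshold. Within 100 kb a member had a median of 9 other genes and an eligible gene 4. In genes that met only the 30 min or only the 60 min threshold this median was 8. The Wilson intervals treat genes as separate draws, although neighbours share sequence and reads where they overlap, as 47 members did with another gene of the table.

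**Figure D4:**
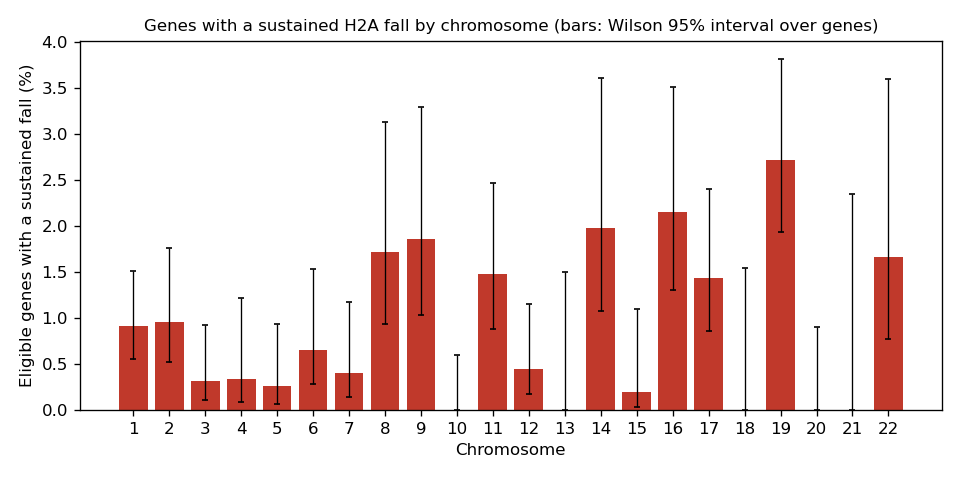
Percent of eligible genes that were members on each autosome, with Wilson 95% intervals over genes. Chromosome 19 has the highest share at 2.72%, and chromosomes 10, 13, 18, 20 and 21 have no member.

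Some members were neighbours. RPL3L, TBL3 and NOXO1 followed one another on chr16:1993975-2034193 with no other eligible gene between them. TBL3, a nucleolar protein of ribosome assembly, had 4.30, 3.10 and 3.23 RPKM at 0, 30 and 60 min, and NOXO1, which organises an NADPH oxidase, had 4.72, 3.36 and 3.74 RPKM. With SYNGR3 and CASKIN1 they formed a group of 5 members within 0.253 Mb, in which the 9 other eligible genes had median changes of -0.38 and -0.21 and a median GC of 62.98%. A group on chr14:23389739-24028752 holds PRMT5, CDH24, SLC22A17 and THTPA, and there the 14 other eligible genes had medians of -0.18 and -0.05 and a GC of 46.8%. The pair JAG2 and NUDT14 and the pair PNPLA2 and CD151 were further neighbours. Over all members, 533 eligible genes within 50 kb that were not members themselves had median changes of -0.29 and -0.14 and a median GC of 55.05%. Taken against the GC trend, those neighbours had medians of 0.00 at both times.

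The peak lists were not used by the rule. At 0 min 2 of 157 members (1.27%, Wilson 95% interval 0.350 to 4.53%) had an LSD1 peak in the gene or within 5 kb, and 31.1% of eligible genes did. At 30 min 13 members (8.28%, interval 4.90 to 13.7%) had one, and 28.9% of eligible genes. HP1γ peaks were at 8 members at 0 min (5.10%) and at 13 at 30 min (8.28%), against 35.4% and 30.4% of eligible genes. Long genes offer more room for a peak, and members were short. Among the 1963 eligible genes under 30 kb with a GC content of at least 55%, members included, the shares were 3.36% and 8.91% for LSD1 and 14.1% and 8.41% for HP1γ. This class was chosen after the values were seen. The 127 members in that class had 1.57% and 9.45% for LSD1 and 6.30% and 8.66% for HP1γ. In this class only the HP1γ share before hormone had an interval (3.23 to 11.9%) below the share of the class. TBL3 and NOXO1 were both counted for the same HP1γ peak at 0 min, chr16:2031330-2031832, so the genes were not all separate draws. The class runs to 30 kb, so gene length was matched only in part. These are intervals over genes of single libraries and not tests between cultures.

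ORM2 and TEKT4 were the members with an LSD1 peak before hormone. The ORM2 peak, chr9:117092733-117093331, lay near the gene start, where an HP1γ peak was also listed at 0 min. At 30 min the highest-scored LSD1 peak of a member was in LCN8 at chr9:139650309-139650799, with a deposited score of 56.8. An LSD1 peak in CD37 at chr19:49843146-49843530 scored 35.2 in the same list. In the HP1γ list at 30 min the highest-scored peak of a member was in SLC5A2, a sodium and glucose cotransporter, at chr16:31495800-31496206 with a score of 49.3. C15orf52 had a peak of HP1γ at 0 min and of LSD1 at 30 min at its start. The score is the authors' own and ranks peaks within a list only.

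Of the BPTF peaks that the authors listed as displaced by hormone, 1 was within 5 kb of a member, PRR29, and of those listed as recruited, 1 was near MRPL12. The shares of eligible genes were 11.4% and 6.41%, and in the short GC-rich class they were 1.48% and 3.06%. The displaced peak is chr17:62083979-62084760, downstream of PRR29, which had 8.27 RPKM of H2A at 0 min, 6.22 at 30 min and 6.66 at 60 min. The recruited peak is chr17:79675710-79676304, downstream of MRPL12. In all, 34 of 157 members (21.7%) had a peak of any of the 6 lists, against 60.1% of eligible genes.

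**Figure D5:**
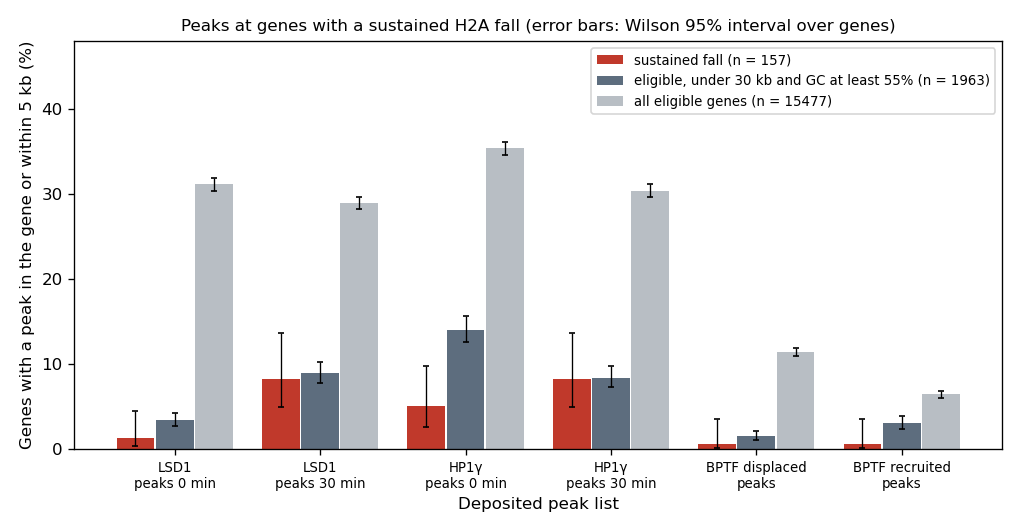
Percent of genes with a peak in the gene or within 5 kb, for the 157 members, the 1963 eligible genes under 30 kb with at least 55% GC and all 15477 eligible genes, with Wilson 95% intervals over genes. Members lie far below all eligible genes in every list, and close to the short GC-rich class except for HP1γ peaks at 0 min (6.30% of the members in that class against 14.1%).

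Sequence at the gene start was counted in windows of 300 bases of GRCh37, from 250 before to 50 after the start in the H2A table, for all 157 members. Motifs were searched on both strands. The receptor element core ACANNNTGT was in 1 window, that of TEKT4 (0.637%), in 3.79% of eligible genes and in 2.42% of eligible genes with at least 55% GC. The shorter TGTTCT, which matches one arm of that element and can overlap it, was in 10.2% of members, 11.4% of eligible genes and 7.22% of the GC-rich ones. GGGCGG was in 66.9% of members, 57.3% of eligible genes and 70.5% of the GC-rich ones. TATAAA was in 5.10% of members, 8.24% of eligible genes and 4.39% of the GC-rich ones. The windows had a median GC of 66.0% in the members and 62.3% in eligible genes. A match is a string of letters and no evidence of binding, and a window without one says nothing of the factor.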

How the data were processed

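The data are ChIP-seq values from T47D-MTVL cells, with 1 library per antibody and time. The submitters' processing notes name Bowtie 1.0.0, HOMER 4.7.2 and build hg19 (GRCh37). The authors deposited H2A as RPKM over protein-coding genes of GENCODE version 18, counted by HOMER on both strands per the file headers. The LSD1 and HP1γ lists hold the authors' deposited score of each peak, none below 30.0, and peak names that carry the word MACS. Not given in the sources used here are the caller's version, its control, the score's definition and the criterion for the deposited BPTF positions.

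Members and gene lists were chosen with earlier results of these data known. Changes are log2 of RPKM plus 0.05, which understates the change of low genes, without centring. Depth came from low values that are whole multiples of 1 read over the gene's length, taken as end minus start because this gave the better fit. At the fitted depth all 27 low values used at 0 min, all 24 used at 30 min and 96.7% of the 30 used at 60 min were whole within 0.05 reads. Counting SEs used reads per annotated transcript, from version 44 of GENCODE lifted to GRCh37 and not version 18, so they are approximate. That annotation also named 19 members. The GC trend was a lowess fit (fraction 0.3) over eligible genes. Peaks were counted for a gene within 5 kb at an overlap of at least 1 bp, and Wilson 95% intervals cover the sampling of genes only.

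Genes named in the text were the 12 with the lowest mean change, those nearest the thresholds, those lowest after the GC trend, the longest, the best supported by counting error, those lowest or highest at 60 against 30 min, members of the gene lists, members with BPTF or top-scored peaks, and adjacent members. Genes named by function, the 7 function groups and the short GC-rich comparison class were chosen after values were seen. The 4 printed promoters are a selection of those in the RefSeq table. Motif shares were planned on that table, but it matched 110 of 157 members, so that check is void and windows of GRCh37 were used in its place. The scripts were tested on simulated data with counting noise only and planted falls larger than the members' median changes. That test checks the code and says nothing of how well smaller falls are found. Python 3.11.15, pandas 2.3.3, statsmodels 0.14.6 and scipy 1.17.1 were used.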

Additional observations from a re-analysis of the deposited data

How the results depend on the processing

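Each change rests on 1 library per time, so no replicate could be left out. No paired analysis was possible because every antibody and time had 1 sample and no test was made. The number of genes meeting both thresholds was 157. It was 47 with a pseudocount of 0.5, 265 with no length minimum, 31 with the longer length minimum of 10 kb, 24 with changes centred on the median of eligible genes, 8 with the GC trend taken off and the median kept, and 2 with it taken off and centred on 0. It was 19 with thresholds of -0.5 and -0.4 and 39 with -0.4 at both times. With a pseudocount of 0.01 it was 179, with a mean RPKM of at least 0.1 it was 168 and of at least 1 it was 132. The median change of the members at 30 min was -0.46; it was -0.47 with a pseudocount of 0.01, -0.38 with 0.5, -0.33 when centred and -0.14 after removal of the GC trend. The median at 60 min was -0.35; it was -0.30 with a pseudocount of 0.5, -0.33 when centred and -0.18 after removal of the trend. The median difference of 60 against 30 min was 0.11. It was 0.081 with a pseudocount of 0.5, 0.017 when centred and -0.047 with the trend taken off, which also removes the rise shared by genes of like GC. The median GC was 59.9% over the gene and 64.5% over the 1 kb around its start.

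Keeping peaks with a score of at least 50 left 0% of members with an LSD1 peak at 0 min, 0.637% at 30 min, and 0% with an HP1γ peak at either time. Within 1 kb of the gene start, 1.91% had an LSD1 peak at 30 min, 1.27% an HP1γ peak at 0 min and 2.55% at 30 min, and 0% a BPTF peak of either list. In the gene with no flank, 2.55% had an HP1γ peak at 0 min, 4.46% at 30 min and 0% a BPTF peak of either list. Requiring the larger part of a peak to lie inside the window changed no share. The cause of these differences was not tested, beyond fewer genes or a smaller window by construction.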
